A study of Homo sapiens with 4 samples.

Results

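Messenger RNA levels of 10 genes of the VEGF and PDGF growth factor system were followed in KYSE410, a human cell line from a squamous cell carcinoma of the oesophagus. The genes were VEGFA, VEGFB, VEGFC, PGF, PDGFA and PDGFB, which encode secreted ligands, FLT1 and KDR, which encode VEGF receptors, and NRP1 and NRP2, the neuropilin co-receptors. They were chosen by symbol: a probe set belonged to a gene when its RefSeq transcript carried one of these 10 symbols, out of 17185 named genes on the array. All 10 had at least 1 probe set, and NRP1 and NRP2 had 3 each. Cells were given TNFα (tumour necrosis factor α), IL1β (interleukin 1β), LPS (lipopolysaccharide, from the outer membrane of Gram-negative bacteria) or PBS, the solvent, each for 24 h. The series was set up as a screen for mRNA that responds to inflammatory stimuli. There was 1 single-colour NimbleGen array per condition and 4 in all, so the differences carry neither an error nor a p-value, and precision is limited by the number of arrays. The labels give no doses, and all values come from 1 cell line grown in medium with fetal bovine serum.

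VEGFA, VEGFB, VEGFC and PGF are secreted relatives that act on receptor tyrosine kinases, best known from endothelial cells. VEGFA binds FLT1 and KDR, VEGFB and PGF bind FLT1, and VEGFC is a lymphatic growth factor that binds FLT4 and KDR. PDGFA and PDGFB encode chains of platelet-derived growth factor, which acts through PDGFRA and PDGFRB, receptors of mesenchymal cells. Neuropilins bind several VEGF ligands and also class 3 semaphorins, and are spliced into membrane-bound and soluble forms. Carcinoma cells commonly secrete such ligands, while the receptor kinases are typical of stromal and vascular cells.

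Values are RMA intensities on a linear scale or their log2. A gene is called higher or lower below when its intensity differed 2-fold or more between 2 arrays, with the brighter of them at or above a floor of 260.5 (8.02 on the log2 scale), the median level of the named genes. Near background means below 2 times a set of 5000 random-sequence probes on the same array, a limit of 112 with TNFα, 112 with IL1β, 113 with LPS and 108 with PBS. Where a gene had several probe sets, the one with the highest mean log2 level stands for it.

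The markers matched the label of the cell line in part. Of 10 squamous epithelial markers 9 were at the floor with TNFα and all 10 on each of the other arrays, among them the keratins KRT5 and KRT14. The adhesion protein CDH1 was lower on each stimulated array, at 232 with TNFα, 287 with IL1β and 284 with LPS, against 1209 on the single PBS array. KRT14 (2.38-fold), KRT17 (2.12-fold) and the lineage factor TP63 (2.79-fold) were higher with LPS than with PBS. Their part in the members' differences was not tested. Of 8 cardiac muscle markers 6 were at the floor with TNFα, IL1β and PBS and 3 with LPS. Lower with LPS than with PBS were 4 of them, against 4.18% of all named genes. The intensity of MYH6, a cardiac myosin heavy chain, was 14709 with TNFα, 17101 with IL1β, 81.3 with LPS and 9470 with PBS. The other 3 were MYH7 (at least 32.5-fold lower), TNNI3 (12.3-fold lower) and TNNT2, which had 368 with LPS against 4064 with PBS. TNNI3 was 2.08-fold higher with TNFα. ACTC1, cardiac actin, stayed bright, at 12945 with LPS against 17961 with PBS. The summed intensity of 8 cardiac markers was 50506 with TNFα, 58429 with IL1β, 14457 with LPS and 38257 with PBS. That of 10 myeloid markers was 12979 with TNFα, 15576 with IL1β, 2798 with LPS and 9562 with PBS. Much of the PBS sum was LYZ (lysozyme), at 6917 with PBS and 209 with LPS. AIF1 went the other way, at 185 with PBS and 1386 with LPS. With LPS 1 of the 10 was called higher than PBS and 3 lower. Several transcripts unusual for the labelled cell line, MYH6 and LYZ among them, were thus bright on the TNFα, IL1β and PBS arrays and much dimmer with LPS. The myeloid list as a whole did not follow this. Of its 10 markers 7 were at the floor with TNFα and 8 with IL1β, but 4 with PBS and 3 with LPS. The part of such transcripts in the differences below, where PBS is the reference for most, was not tested. With 1 array per condition it cannot be told apart from the stimulus.

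Promoter sequences are shown for VEGFC, VEGFB and NRP2, the members with a large difference from PBS on at least 1 array that have an entry in the RefSeq promoter table of GRCh38.p14. Each runs 5′ to 3′ on the gene's strand, from 250 bases before the annotated start to 50 bases after it, in lower case. Capitals mark matches to the GC box GGGCGG on either strand.
VEGFC, chr4:176792873-176793172, strand -: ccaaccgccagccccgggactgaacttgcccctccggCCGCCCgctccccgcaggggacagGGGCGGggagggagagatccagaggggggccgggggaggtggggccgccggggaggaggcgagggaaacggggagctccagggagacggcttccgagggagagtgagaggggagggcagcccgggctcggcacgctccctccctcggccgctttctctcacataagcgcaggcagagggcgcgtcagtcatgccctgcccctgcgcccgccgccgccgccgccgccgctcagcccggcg
VEGFB, chr11:64234334-64234633, strand +: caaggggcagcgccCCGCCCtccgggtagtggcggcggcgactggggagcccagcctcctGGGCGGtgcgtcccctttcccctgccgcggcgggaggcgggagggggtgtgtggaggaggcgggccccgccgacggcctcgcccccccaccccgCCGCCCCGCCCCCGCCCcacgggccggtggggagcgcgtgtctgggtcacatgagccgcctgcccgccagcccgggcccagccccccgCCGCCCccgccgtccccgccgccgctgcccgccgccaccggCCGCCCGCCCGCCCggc
NRP2, chr2:205682251-205682550, strand +: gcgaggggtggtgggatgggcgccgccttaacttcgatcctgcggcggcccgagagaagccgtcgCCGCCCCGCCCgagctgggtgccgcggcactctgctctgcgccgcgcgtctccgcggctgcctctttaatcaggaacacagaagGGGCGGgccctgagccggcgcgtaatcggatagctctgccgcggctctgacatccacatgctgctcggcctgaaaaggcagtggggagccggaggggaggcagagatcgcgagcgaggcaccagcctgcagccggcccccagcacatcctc

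All 3 windows were rich in G and C, at 76.3% for VEGFC, 84.7% for VEGFB and 70.0% for NRP2. VEGFC held 2 GC boxes and NRP2 held 3, while VEGFB held 9, some of which overlap one another. At least 1 GC box was present in 45.0% of 35116 promoter windows of the same length. No match was found in these 3 windows, on either strand, to the hypoxia response core ACGTG (present in 21.4% of all windows), the AP-1 site TGANTCA (7.71%), GGGANTT, the first 7 letters of a common NF-κB site (15.9%), TATAAA (11.5%) or CCAAT (34.6%). The absence says only that these letters are not in these windows. In all, 7 of the 10 members matched the promoter table, and VEGFA, PDGFB and NRP1 are named only.

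VEGFC was the member with the largest differences, and it was brighter on each of the stimulated arrays than on the PBS array. Its intensity was 577 with TNFα, 477 with IL1β and 638 with LPS, against 179 with PBS. The stimulated values lay within 1.34-fold of each other, and the PBS value stood apart below them. Against PBS, VEGFC was 3.22-fold higher with TNFα, 2.67-fold higher with IL1β and 3.56-fold higher with LPS, log2 differences of 1.69, 1.41 and 1.83. Among genes at the floor, 1.08% had a larger positive difference with TNFα, 1.41% with IL1β and 2.09% with LPS. All of these differences share the single PBS array, on which VEGFC lay below the floor, so it passed the floor through the stimulated arrays. With the floor raised to the 75th percentile of named genes (9.56) VEGFC was not called on any array. It has 1 probe set, so no second set can repeat the value. Whether more cells expressed VEGFC or each cell held more of its RNA cannot be told apart in bulk RNA.

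VEGFA, the principal angiogenic ligand, had its highest value with LPS. Its intensity was 1034 with TNFα, 1224 with IL1β and 1849 with LPS, against 881 with PBS. LPS was called higher than PBS at 2.10-fold (log2 difference 1.07), just past the size rule, while TNFα (0.23) and IL1β (0.47) stayed within 1.39-fold of PBS. With LPS, 7.73% of genes at the floor had a larger positive difference than VEGFA.

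VEGFB, a ligand of FLT1, was called against PBS on the LPS array alone. Its intensity was 449 with TNFα, 381 with IL1β and 931 with LPS, against 374 with PBS. The TNFα, IL1β and PBS values lay close together and the LPS value was 2.49-fold above PBS (log2 difference 1.32). A larger positive difference was seen in 4.90% of genes at the floor. The log2 differences for the cytokines were 0.27 with TNFα and 0.03 with IL1β.

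PGF, placental growth factor, was not called in any comparison and stayed under the floor on all 4 arrays. Its intensity was 152 with TNFα, 153 with IL1β and 185 with LPS, against 255 with PBS, the only value close to the floor. From PBS it differed by -0.74 with each cytokine and by -0.46 with LPS on the log2 scale.

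The PDGF ligands were not called in any comparison. PDGFA, the A chain, had intensities of 194 with TNFα, 204 with IL1β and 176 with LPS, against 288 with PBS. All of the stimulated values were below the PBS value, at log2 differences of -0.57, -0.50 and -0.71, and PBS was the only array on which PDGFA reached the floor. PDGFB, the B chain, had intensities of 200.2 with TNFα, 229.6 with IL1β and 198 with LPS, against 199 with PBS. It varied least of the 10 members, with a range of 0.21 on the log2 scale, and was under the floor throughout.

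**Figure D1:**
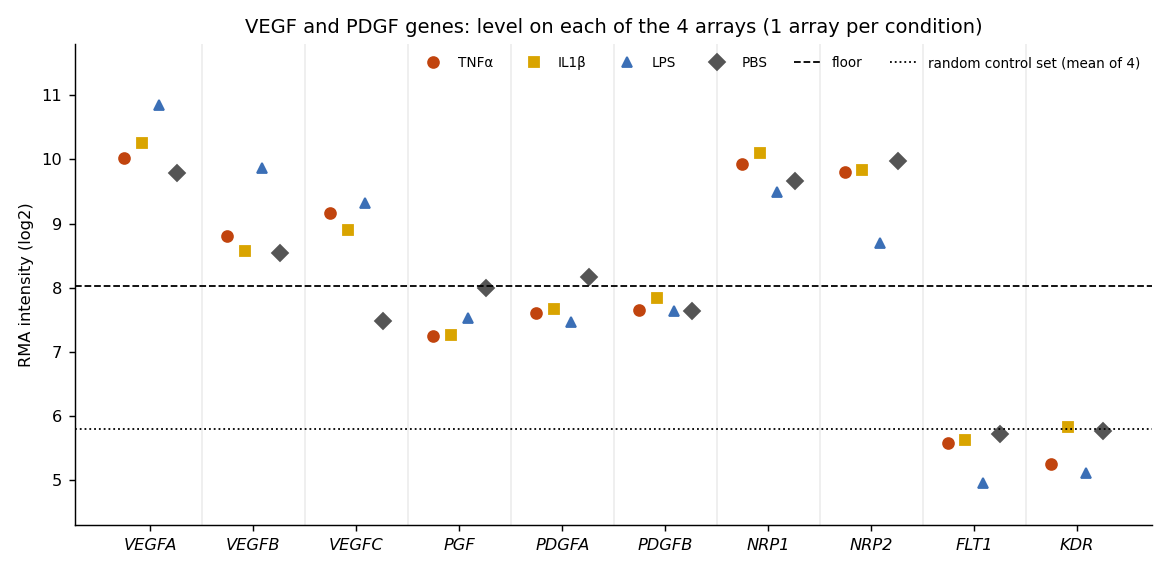
RMA intensity (log2 axis) of the 10 genes on the TNFα, IL1β, LPS and PBS arrays, 1 point per array, for the probe set with the highest mean level. The dashed line is the floor at 8.02 and the dotted line the random control set. VEGFC has a single low point, with PBS at 7.48, VEGFB a single high one, with LPS at 9.86, and FLT1 and KDR lie around or under the control line.

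The VEGF receptor kinases FLT1 and KDR were near background, while FLT4, given with the partners below, was above the floor on all 4 arrays. FLT1 had intensities of 48.0 with TNFα, 49.2 with IL1β and 30.9 with LPS, against 52.7 with PBS, in each case below the random control set of the same array (55.8 with TNFα, 56.1 with IL1β, 56.4 with LPS and 54.1 with PBS). KDR had intensities of 38.1 with TNFα, 56.5 with IL1β and 34.5 with LPS, against 54.2 with PBS, between 0.611 and 1.01 times the random control. No fold is given for either gene, because both values of each pair were near background. A transcript present below what these probes resolve would look the same. Of 10 endothelial markers, 2 were at the floor with TNFα, 4 with IL1β, 3 with LPS and 3 with PBS. Only EMCN was near background on all arrays. The floor is the median level of the named genes, so a marker under it need not be near background. PECAM1, an endothelial adhesion molecule, had intensities of 127 with TNFα, 274 with IL1β and 74.1 with LPS, against 419 with PBS. ESAM, another endothelial adhesion molecule, went the other way with LPS, at 309 against 50.9 with PBS (at least 2.85-fold higher), with 102 with TNFα and 106 with IL1β.

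Counted together, 1 of the 10 members was higher and 0 lower with TNFα, against 1.84% of all named genes higher and 1.86% lower. With IL1β the count was again 1 higher and 0 lower, against 1.72% and 1.96% of named genes, and in both cases the member was VEGFC. With LPS 3 of 10 were higher, VEGFA, VEGFB and VEGFC, against 4.97% of named genes, and 1 was lower, NRP2, against 4.18%. A single member called among 10 is too few to read against these shares. The members were chosen with earlier results of these data known, so the 3 of 10 with LPS is a description and no test. The median log2 difference over the 10 members was -0.06 with TNFα, 0.04 with IL1β and -0.31 with LPS. Over all named genes it was -0.03 with TNFα, -0.03 with IL1β and 0.02 with LPS. The members did not shift as a block: with LPS, VEGFA, VEGFB and VEGFC lay above 0 and the other 7 members below it. Of those 7, FLT1 and KDR were near background, PDGFB lay at -0.01 and the probe sets of NRP2 differed in sign. In each of these comparisons 6 of the 10 members reached the floor on at least 1 array. Spread between probe sets was measured in 622 genes with a second set at the floor. Their log2 differences disagreed between the 2 sets with an SD of 0.55 with TNFα, 0.57 with IL1β and 0.70 with LPS. The VEGFC differences were over 2 times that SD, and the VEGFA, VEGFB and NRP2 differences with LPS between 1 and 2 times it in size. Both sets of a gene are read on the same arrays, so this SD holds no spread between arrays or cultures and gives no test.

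**Figure D2:**
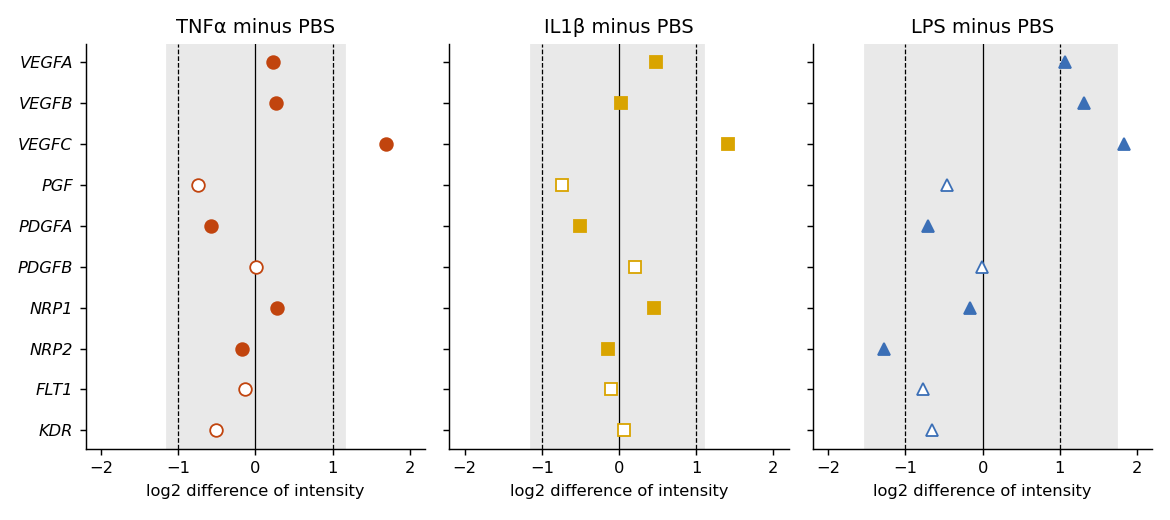
Log2 difference of intensity from the PBS array for each gene, with TNFα, IL1β and LPS in separate panels and 1 point per gene. Filled points reached the floor on at least 1 of the 2 arrays and open points did not. The grey band holds the central 95% of all genes at the floor, and dashed lines mark 2-fold. VEGFC lies right of the band in all 3 panels, at 1.69, 1.41 and 1.83.

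The neuropilins differed between their probe sets. NRP1 was represented by sets for NM_001024628, NM_001024629 and NM_003873. The first of them had intensities of 979 with TNFα, 1101 with IL1β and 724 with LPS, against 807 with PBS, and the second had 878 with TNFα, 982 with IL1β and 581 with LPS, against 808 with PBS. Both had IL1β highest and LPS lowest, with log2 differences from PBS of 0.45 and 0.28 with IL1β and -0.16 and -0.48 with LPS. The third set stayed under the floor at 179 with TNFα, 139 with IL1β and 201 with LPS, against 176 with PBS, and there IL1β was lowest and LPS highest. No NRP1 set differed 2-fold between any pair of arrays.

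NRP2 was lower with LPS by the set for NM_201264, which stands for the gene by its mean level. That set had intensities of 895 with TNFα, 912 with IL1β and 414 with LPS, against 1007 with PBS, so that LPS alone was set apart, 2.43-fold below PBS (log2 difference -1.28). The set for NM_018534 had 548 with TNFα, 598 with IL1β and 625 with LPS, against 858 with PBS, a difference of -0.46 with LPS. The set for NM_003872 went the other way, with 513 with TNFα, 533 with IL1β and 944 with LPS, against 576 with PBS, a difference of 0.71. The NRP2 call with LPS therefore rests on 1 of 3 probe sets, and the mean of the 3 differences was -0.34, under the size rule. The LPS minus PBS differences of NRP2 thus ran from -1.28 to 0.71 over its sets. Of 85 genes with at least 3 probe sets, all at the floor on average, 2 had a wider range than NRP2, and the median range was 0.67. With TNFα the range for NRP2 was 0.48 and with IL1β 0.41, and 55 and 56 of the 85 genes had wider ones. Whether the probes of a set are unique to the transcript it is named for was not tested, and no level of one set is compared with that of another.

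**Figure D3:**
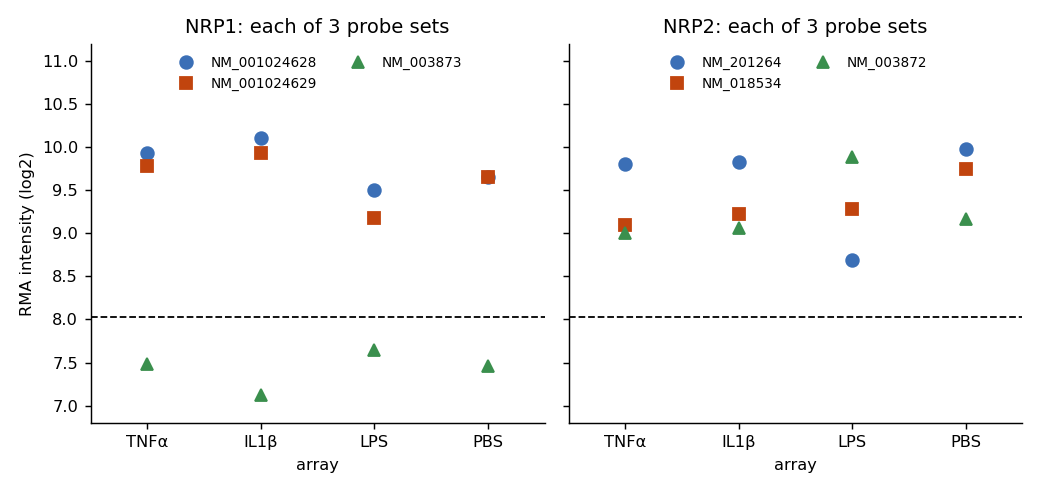
RMA intensity (log2 axis) of each of the 3 probe sets of NRP1 and NRP2 on the TNFα, IL1β, LPS and PBS arrays, 1 point per array, with the floor dashed. For NRP2 the NM_201264 set is lowest with LPS, at 8.69, where the NM_003872 set is highest, at 9.88.

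LPS was also set against each cytokine directly, which does not use the PBS array. VEGFB was higher with LPS than with TNFα (2.07-fold, log2 difference 1.05) and than with IL1β (2.44-fold, 1.29). NRP2, by its NM_201264 set, was lower with LPS in both comparisons, with log2 differences of -1.11 against TNFα and -1.14 against IL1β. The other NRP2 sets were above 0 in both, at 0.19 and 0.06 for NM_018534 and 0.88 and 0.82 for NM_003872. Named genes higher with LPS made up 5.58% against TNFα and 5.96% against IL1β, and those lower 3.99% and 4.21%, while 1 of 10 members was called each way each time. VEGFA had log2 differences of 0.84 against TNFα and 0.59 against IL1β, and VEGFC 0.15 and 0.42, all under 2-fold. By this rule VEGFB separated the LPS array from both cytokine arrays, although against TNFα its difference was 0.96 after loess centring and 0.97 with an offset, just under 2-fold. These comparisons share the LPS array. Between the cytokines, TNFα minus IL1β, no member was called, where 1.01% of named genes were higher and 0.937% lower, and the members' log2 differences ran from -0.57 for KDR, near background, to 0.27 for VEGFC.

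The genes whose 3 differences from PBS lay nearest to those of a called member were then listed, among 8592 other genes with a mean level at the floor, by Euclidean distance on the log2 scale. For VEGFC they were MSL2 at a distance of 0.16 and IFI30 at 0.21. For VEGFA they were C5orf22 (0.04) and SNF8 (0.09), for VEGFB WIPF2 (0.10) and COMMD6 (0.10), and for NRP2 KLF16 (0.10) and DBNDD1 (0.11). With 3 differences that share 1 PBS array, such nearness is a description of these 4 arrays.

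Partners of the pathway were taken from lists. The list counts below stand beside the shares of all named genes called against PBS. Higher and lower calls made up 1.84% and 1.86% with TNFα, 1.72% and 1.96% with IL1β, and 4.97% and 4.18% with LPS. Single calls in a list are too few to read against such shares. None of the 7 other VEGF and PDGF ligands and receptors was called with any stimulus. FLT4, a receptor for VEGFC, had intensities of 523 with TNFα, 435 with IL1β and 343 with LPS, against 499 with PBS, and a second set for it had 263 with TNFα, 269 with IL1β and 373 with LPS, against 295 with PBS. With LPS the FLT4 sets thus pointed in opposite directions, at -0.54 and 0.34. PDGFRA had 182 with TNFα, 183 with IL1β and 104 with LPS, against 95.6 with PBS, where the LPS and PBS values were near background. PDGFRB had 55.7 with TNFα, 88.5 with IL1β and 91.2 with LPS, against 127 with PBS, the only array on which it was above the limit. VEGFD and PDGFC were near background on all arrays. PDGFD, singled out after its values were seen, had 249 with TNFα against 28.2 with PBS, at least 2.30-fold, but did not reach the floor.

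Class 3 semaphorins, the other ligands of neuropilins, and their plexin receptors held 1 call that all comparisons with PBS shared. SEMA3A, a repulsive guidance cue, had intensities of 152 with TNFα, 159 with IL1β and 98.4 with LPS, against 479.8 with PBS. It was 3.16-fold lower with TNFα, 3.02-fold lower with IL1β and at least 4.25-fold lower with LPS. These calls share the single PBS array, the only one on which SEMA3A reached the floor. With LPS SEMA3B (2.63-fold) and the plexin PLXNA2 (2.33-fold) were higher, so that of 12 measured genes 0 were higher and 1 lower with either cytokine and 2 higher and 1 lower with LPS. The median over the list was 0.03 with TNFα, -0.31 with IL1β and 0.21 with LPS. These medians include many dim genes. Only 4 of the 12 reached the floor in the TNFα comparison, 3 with IL1β and 5 with LPS. SEMA3C, SEMA3D, SEMA3E and SEMA3G were near background on all arrays.

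Transcripts of the HIF pathway, which drives VEGFA in low oxygen, were called in small numbers. HIF1A, the oxygen-regulated subunit, had intensities of 4713 with TNFα, 3139 with IL1β and 5907 with LPS, against 899.9 with PBS, which is 5.24-fold higher with TNFα, 3.49-fold with IL1β and 6.56-fold with LPS. Its second probe set had 1026 with TNFα, 1118 with IL1β and 1166 with LPS, against 1066 with PBS, and differed by no more than 0.13 on the log2 scale. The HIF1A calls, which share the PBS array, therefore rest on 1 of 2 sets. EPAS1, the HIF-2α subunit, was 2.77-fold higher with LPS, at 904 against 326. HIF3A was 2.64-fold higher with TNFα by 1 of its 2 sets, and VHL, which marks HIF subunits for degradation, was 2.02-fold lower with TNFα. Of 11 regulators measured, 2 were higher and 1 lower with TNFα, 1 higher and 0 lower with IL1β, and 2 higher and 0 lower with LPS, with medians of 0.00 with TNFα, -0.01 with IL1β and -0.03 with LPS.

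Of 20 hypoxia target genes none was higher with TNFα or IL1β and 3 were higher with LPS. They were ANKRD37 (3.73-fold), NDRG1 (3.54-fold) and BNIP3L, a mitophagy receptor (2.67-fold). ANKRD37 had 817 with LPS against 219 with PBS, and BNIP3L 336 against 126. Both lay under the floor with PBS and passed it through the LPS array. NDRG1 had an intensity of 15341 with LPS against 4333 with PBS, and 5351 with TNFα and 4406 with IL1β. The list median was 0.01 with TNFα, 0.07 with IL1β and 0.22 with LPS. PDK1, a kinase that restrains pyruvate dehydrogenase, was 2.28-fold lower with TNFα and 2.47-fold lower with IL1β, the only lower call of the list in either.

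Among 24 other angiogenic factors and receptors, few genes were called with any stimulus. FGF1, a fibroblast growth factor, had intensities of 289 with TNFα, 943 with IL1β and 136 with LPS, against 129 with PBS, and was 2.25-fold higher with TNFα and 7.32-fold higher with IL1β. ADM, the vasodilator peptide adrenomedullin, had 3010 with TNFα, 3162 with IL1β and 8777 with LPS, against 3414 with PBS, 2.57-fold higher with LPS. The matricellular CCN3 was at least 5.10-fold higher with LPS. CCN2 was 2.23-fold lower with TNFα and at least 2.45-fold lower with LPS. In all, 1 gene was higher and 1 lower with TNFα, 1 and 1 with IL1β, and 2 and 1 with LPS, with medians of 0.05 with TNFα, -0.13 with IL1β and 0.35 with LPS.

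Angiogenesis inhibitors went in both directions. SERPINF1, pigment epithelium-derived factor, had intensities of 67.9 with TNFα, 249.8 with IL1β and 118 with LPS, against 565 with PBS. It was at least 5.06-fold lower with TNFα, 2.26-fold lower with IL1β and 4.78-fold lower with LPS, calls that share the single PBS array. TIMP3, a metalloproteinase inhibitor that also binds KDR, was at least 3.84-fold higher with LPS, and ADAMTS1 2.98-fold higher. THBS2, thrombospondin 2, was at least 3.15-fold higher with IL1β. Of 11 measured, 0 were higher and 1 lower with TNFα, 1 higher and 1 lower with IL1β, and 2 higher and 2 lower with LPS. The median over the list was 0.55 with TNFα, -0.15 with IL1β and -0.07 with LPS. Only 4 of the 11 reached the floor in the TNFα comparison. The TNFα median was the difference of THBS2, whose PBS value of 104 was near background.

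Of 25 signal transducers used by VEGF and PDGF receptors, 1 was higher and 2 lower with TNFα, 1 higher and 3 lower with IL1β, and 0 higher and 4 lower with LPS. PTPN11, the phosphatase SHP2, had intensities of 281 with TNFα, 261 with IL1β and 386 with LPS, against 1625 with PBS, which is 5.79-fold lower with TNFα, 6.23-fold with IL1β and 4.21-fold with LPS. SPRY4, a feedback inhibitor of receptor kinase signalling, had 299 with TNFα, 136 with IL1β and 133 with LPS, against 616.5 with PBS. The PTPN11 and SPRY4 differences all share the single PBS array. PIK3R1, a regulatory subunit of PI3 kinase, had 1041 with TNFα, 799 with IL1β and 290.3 with LPS, against 266 with PBS. PIK3R1 was 3.92-fold higher with TNFα and 3.01-fold higher with IL1β. PTPRJ, a receptor phosphatase, was 2.96-fold lower with LPS. The list medians of 0.03, -0.09 and -0.17 with TNFα, IL1β and LPS lay close to 0.

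**Figure D4:**
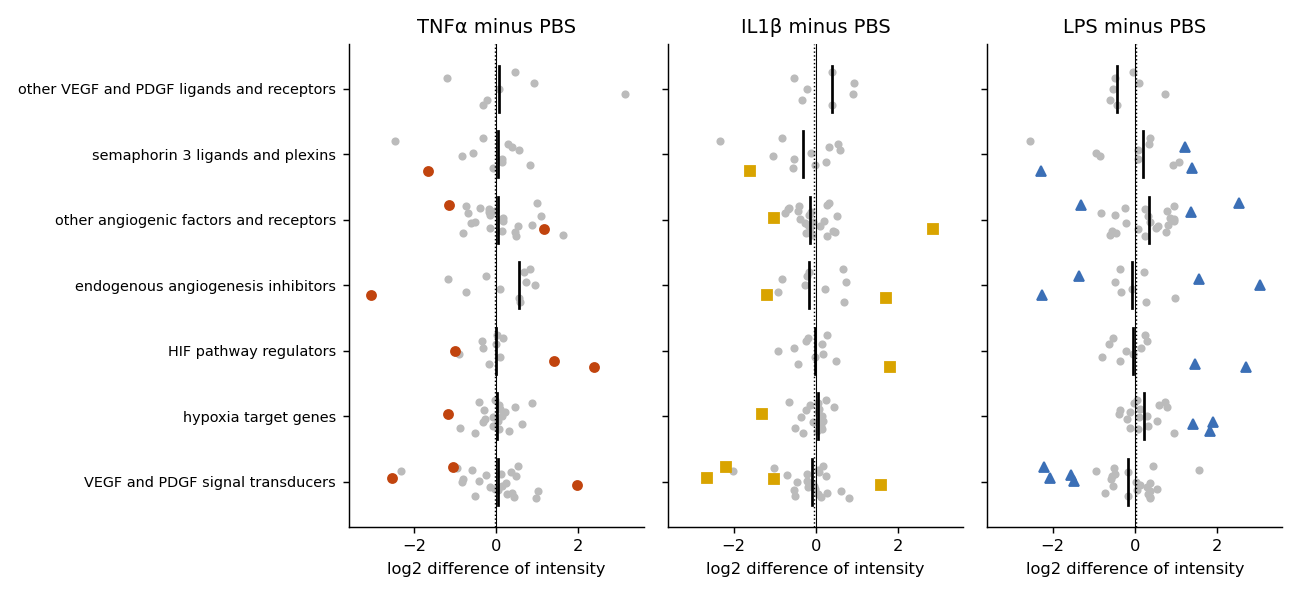
Log2 difference from the PBS array for the genes of 7 related lists, with TNFα, IL1β and LPS in separate panels. Coloured points are called higher or lower, grey points are not, black bars are list medians and the dotted line is the median of all named genes. No coloured point appears for the other VEGF and PDGF ligands and receptors, and the hypoxia targets have 3 coloured points on the right with LPS.

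Markers of other cell types that use these ligands moved as follows. Platelets are a rich source of PDGF. Of 8 platelet and megakaryocyte markers PPBP alone was called against PBS, 2.65-fold higher with IL1β, and their summed intensity was 2155 with TNFα, 2589 with IL1β and 1793 with LPS, against 2305 with PBS. Of 11 fibroblast and pericyte markers, ACTA2 was lower with TNFα (log2 difference -1.32) and COL1A2 3.11-fold lower with LPS, and LUM, RGS5, THY1 and FAP were near background on all arrays. Their summed intensity was 2661 with TNFα, 2918 with IL1β and 2202 with LPS, against 3986 with PBS. Summed endothelial markers stood at 2061 with TNFα, 2160.4 with IL1β and 2285 with LPS, against 2368 with PBS. Myeloid markers, whose cells can make VEGFC and VEGFA, had 3 of 10 higher with TNFα, 4 higher with IL1β, and 1 higher and 3 lower with LPS. Of all named genes 1.84% were higher with TNFα and 1.72% with IL1β, and 4.97% were higher and 4.18% lower with LPS. PTPRC, the pan-leukocyte phosphatase CD45, had 1295 with TNFα and 1046 with IL1β, against 91.5 with PBS, and 81.5 with LPS. FCGR3A, an Fc receptor, had 2906 with TNFα, 729.7 with IL1β and 84.8 with LPS, against 212 with PBS. LYZ, lysozyme, was 33.1-fold lower with LPS, at 209 against 6917 with PBS, and TYROBP at least 7.10-fold lower. AIF1, a macrophage protein singled out after its values were seen, was called higher on all 3 stimulated arrays, as VEGFC was. Its intensity was 1193 with TNFα, 997.5 with IL1β and 1386 with LPS, against 185 with PBS, and a second set had 483 with TNFα, 347 with IL1β and 296 with LPS, against 199 with PBS, past the size rule with TNFα alone. The AIF1 and VEGFC calls share the single PBS array. The part of these markers in the VEGFC difference was not tested.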

How the data were processed

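The authors deposited 1 table per array with an RMA intensity for each of 45033 probe sets on a linear scale, per the file headers and names. The labels name no software or settings. RMA usually equalises array distributions, so a change shared by most genes is not seen. The deposited series value table held the same intensity for 100% of values (tolerance 1e-04).

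Probe sets were named by matching their transcript accessions, without versions, to the RefSeq table of GRCh38.p14, which gave 1 symbol to 18866 of them and 17185 genes. Each comparison is the difference of log2 intensity between 2 arrays, with no test. The size rule and near-background limit are given above. The rule was also run on simulated data with an assumed noise level and changes larger than any called in the members. That run does not show how often the rule errs on these arrays. A fold whose dimmer value was near background was taken against that limit and written "at least". The text names all 10 members, up to 4 called genes with the largest difference from each of the other lists, HIF1A, FLT4, PDGFRA and PDGFRB at any value, and for each called member the 2 nearest genes. Genes outside that rule, such as PDGFD, AIF1 and ACTC1, were chosen after their values were seen. Members and lists were chosen with earlier results of these data known. Tools were numpy 2.4.6 and statsmodels 0.14.6 for values, pandas 2.3.3 for tables and matplotlib 3.10.9 for plots, under Python 3.11.15.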

Additional observations from a re-analysis of the deposited data

How the results depend on the processing

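Counts of called members and their medians were recomputed without a floor, with a higher floor (the 75th percentile of named genes, 9.56), the mean of all probe sets, loess centring, an offset of 50.9 before log2, a repeat of quantile normalization, the values of the series table, and thresholds of 1.5-fold and 3-fold. A floor and probe set choice without the LPS array was added after seeing the data, and it changed no count. The direction of every called member was the same under the alternatives that changed its value. VEGFC no longer reached the higher floor, so the members higher were 0 with TNFα and 0 with IL1β under it, and 2 with LPS. At 3-fold they were 0 with IL1β and 1 with LPS (VEGFC) against PBS, and those lower with LPS 0. Between stimuli, 3-fold left 0 members called either way in LPS against TNFα and against IL1β. At 1.5-fold the members lower with LPS than PBS were 2 (PDGFA and NRP2). LPS against TNFα then had 2 higher (VEGFA and VEGFB), and LPS against IL1β 2 higher and 2 lower (NRP1 and NRP2). With the mean of all probe sets NRP2 was not called, and the members lower with LPS were 0 against PBS, 0 against TNFα and 0 against IL1β. Its log2 differences were then -0.34, -0.01 and -0.08. VEGFB was not called higher in LPS against TNFα with loess centring (0 members) or with the offset (0 members). No paired analysis was possible because there is 1 array per condition. Precision is limited by signal over background for FLT1 and KDR.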
